A study of Mus musculus with 18 samples.

Results

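The IL-23 and IL-17 axis was followed in sorted cells of psoriasis-like mouse skin through 10 genes, taken by symbol from the 23951 genes of the FPKM table. They were the cytokine genes Il23a, Il12b and Il17c, the receptor genes Il17ra, Il17rc and Il17re, the adaptor gene Traf3ip2, the regulators Nfkbiz and Zc3h12a, and the target gene Lcn2. All 10 were listed in each of the 18 RNA-seq libraries, 3 from each of 6 groups. The DKO* mice carried floxed JunB and floxed c-Jun alleles, a Cre-ERT transgene driven by the keratin 5 promoter, which is active in basal keratinocytes, and the mT/mG reporter. Their controls (Co) carried the same Cre and reporter with wild-type or heterozygous floxed JunB and c-Jun, on a mixed background of both sexes, and both kinds of mice received 4 daily injections of 2 mg tamoxifen at 8 weeks of age. Cells that had recombined switched from Tomato to GFP. Ear epidermis was taken at day 7 and sorted as CD45-negative, CD49f-high cells, either CD34-positive (bulge hair follicle stem cells, HF-SC) or CD34-negative (basal keratinocytes, b-KC). The 4 DKO* groups were the mutant GFP and the non-mutant Tom fraction of each cell type, all from mice 814, 815 and 817, and the Co groups of both cell types came from mice 810, 825 and 828. Tom cells are therefore non-mutant cells within a diseased skin, and the reporter marks recombination rather than loss of both genes. The titles of the Co libraries name no GFP or Tomato fraction, so comparisons with Co may also differ by the reporter gate.

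IL-23 is a dimer of the p19 chain, encoded by Il23a, and the p40 chain, encoded by Il12b, which also forms IL-12 with the chain encoded by Il12a. In skin it sustains IL-17-producing T cells and innate-like lymphocytes, and IL-17A and IL-17F then act on keratinocytes through a receptor of the chains encoded by Il17ra and Il17rc, whereas IL-17C is made by epithelial cells themselves and binds a receptor of the chains encoded by Il17ra and Il17re. Both receptors signal through Act1, the product of Traf3ip2, towards NF-kB and the stabilisation of inflammatory transcripts, with antimicrobial proteins and neutrophil-attracting chemokines as the classical products.

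In the NCBIM37 annotation (the same assembly as mm9), Il23a lies on chromosome 10, 127733196 to 127735140, Il12b on chromosome 11, 44213565 to 44227535, and Il17c on chromosome 8, 124945920 to 124947539. Il17re and Il17rc are neighbours on the same strand of chromosome 6, separated by 675 bases. The reads carried no strand, so the values of Traf3ip2 may include reads of the opposite-strand lincRNA E130307A14Rik, which shares exonic bases with it. RefSeq (GRCm38.p6) promoter sequences were given for 6 of the 10 members, and each had 1 exact match in NCBIM37. Because the deleted genes encode AP-1 proteins, the windows from 250 bases before to 50 bases after the start were searched on both strands for AP-1 (TGANTCA), NF-kB (GGGA and CC with any 4 bases between them), C/EBP (TTGCNNAA) and STAT (TTCNNNGAA) letters, which occur in 7.81%, 20.7%, 10.8% and 8.30% of 32851 promoters of the same length. None of the 6 members held the AP-1 or the STAT letters in this window, Il17rc held the NF-kB letters 2 times and Lcn2 held the C/EBP letters 1 time. The stretches from 250 to 61 bases before the start are shown for the cytokine genes Il12b and Il17c, for Lcn2, the target with the largest change, and for Il17rc, which held the NF-kB letters, at chr11:44213315-44213504 (plus strand), chr8:124945670-124945859 (plus strand), chr2:32243320-32243509 (minus strand) and chr6:113421199-113421388 (plus strand) of NCBIM37. They are written 5′ to 3′ along the strand of the gene, with the motif matches in capitals. A match is only a match of letters, and its absence concerns this window alone.
Il12b: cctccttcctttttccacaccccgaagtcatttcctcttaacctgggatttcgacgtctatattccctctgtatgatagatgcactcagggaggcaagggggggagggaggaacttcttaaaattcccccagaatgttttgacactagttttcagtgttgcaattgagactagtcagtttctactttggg
Il17c: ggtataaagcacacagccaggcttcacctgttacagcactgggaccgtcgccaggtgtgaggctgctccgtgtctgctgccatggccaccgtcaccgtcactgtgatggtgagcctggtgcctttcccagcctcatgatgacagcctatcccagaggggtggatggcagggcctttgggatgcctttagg
Lcn2: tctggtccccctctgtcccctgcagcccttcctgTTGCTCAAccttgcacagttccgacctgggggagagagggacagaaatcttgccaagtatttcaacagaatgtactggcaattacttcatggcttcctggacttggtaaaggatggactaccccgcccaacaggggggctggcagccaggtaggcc
Il17rc: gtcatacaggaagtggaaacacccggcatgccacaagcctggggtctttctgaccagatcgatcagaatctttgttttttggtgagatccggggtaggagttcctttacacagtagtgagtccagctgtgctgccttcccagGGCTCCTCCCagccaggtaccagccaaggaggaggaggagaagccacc

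Of the targeted genes, Jun had 835 to 1086 FPKM in Co libraries, 29.6 to 88.4 in GFP and 163 to 614 in Tom, and Junb had 436 to 772, 37.2 to 77.5 and 208 to 402. Both genes were thus lower than Co in every Tom library of the same cell type too, so that Tom, named non-mutant by the sort, did not have control levels of them. The lowest GFP value of both genes and both cell types came from mouse 817. Depth is not listed, but the steps between low FPKM values implied 16440000 to 26280000 reads per library. Cd34 followed the gate, with at least 161 FPKM in each HF-SC library and at most 2.53 in each b-KC library. An FPKM of exactly 0 was not always an absent transcript, since Krt14, which every basal keratinocyte makes, was listed at 0 in GFP b-KCs of mouse 817 and in Tom b-KCs of mice 814 and 817. Values of 0 are therefore given as listed and do not show that a transcript was absent. No fold change is given against a group listed at 0 in all 3 libraries, and against a group with some values at 0 the difference of mean log2(FPKM + 1) is given, whose size depends on the added 1.

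Differences were tested with limma on log2(FPKM + 1) over the 12751 genes that reached 1 FPKM in 3 libraries or more, and a gene was called at a Benjamini-Hochberg adjusted p under 0.01. The added 1 understates the change of low genes. All 10 members passed the filter, but Il23a, Il12b and Il17c reached 1 FPKM in 0 of the 6 Co libraries and passed only through DKO* libraries, and Il12b passed through GFP libraries alone. Their selection is thus tied to the comparisons, their calls are given beside the adjusted p without a filter, and counts over the members are descriptions. The GFP and Tom comparisons share their Co libraries. In bulk RNA, fewer cells of a type and less RNA per cell cannot be told apart.

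The cytokine genes of the axis were listed at or under 0.793 FPKM in control cells and higher in DKO* cells, above all in the mutant GFP fractions, as the plot of the 10 genes by library shows. Il23a had 0.144, 0 and 0.151 FPKM in Co HF-SCs of mice 810, 825 and 828, and 8.21, 11.1 and 2.45 in GFP HF-SCs of mice 814, 815 and 817. Tom HF-SCs of the same mice had 2.49, 2.04 and 1.71. Each DKO* library of HF-SCs thus lay above each Co library, and the GFP value of mouse 817 lay within the range of the Tom values. In b-KCs, Il23a had 0.793, 0.552 and 0.757 FPKM in controls, 10.3, 8.33 and 1.66 for GFP and 3.65, 3.47 and 1.71 for Tom. Here too the DKO* and Co libraries did not overlap, and GFP and Tom of mouse 817 were nearly equal. In GFP HF-SCs the mean log2(FPKM + 1) of Il23a lay 2.73 above Co (SE 0.47, limma adjusted p = 2.92e-04, and 0.00180 without a filter). In GFP b-KCs it lay 1.95 above Co (SE 0.47, limma adjusted p = 0.00427), with a mean FPKM 9.66-fold that of Co, and this call was lost without a filter (limma adjusted p = 0.0164) and in a fit of the groups compared alone (limma adjusted p = 0.0234). With 0.1 added in place of 1 the HF-SC difference was 5.08. The b-KC call was also lost when mouse 810, 814, 815, 825 or 828 was left out, with limma adjusted p from 0.0166 to 0.0439. In the Tom fractions the Il23a difference from Co was 1.48 in HF-SCs (limma adjusted p = 0.0176) and 1.17 in b-KCs (limma adjusted p = 0.0504), neither of which was called. Without mouse 817 both passed, at limma adjusted p = 1.06e-06 and 3.89e-06, and with the groups compared alone, at limma adjusted p = 7.77e-04 and 0.00330. With 0.1 added the HF-SC Tom difference was 3.56 and passed (limma adjusted p = 3.10e-04), and under a random block by mouse the Tom HF-SC difference passed (limma adjusted p = 0.00782). The change from Co to GFP was 0.78 larger for HF-SCs than for b-KCs on the log2 scale, with a 95% interval from -0.62 to 2.18, so the cell types were not shown to differ.

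**Figure D1:**
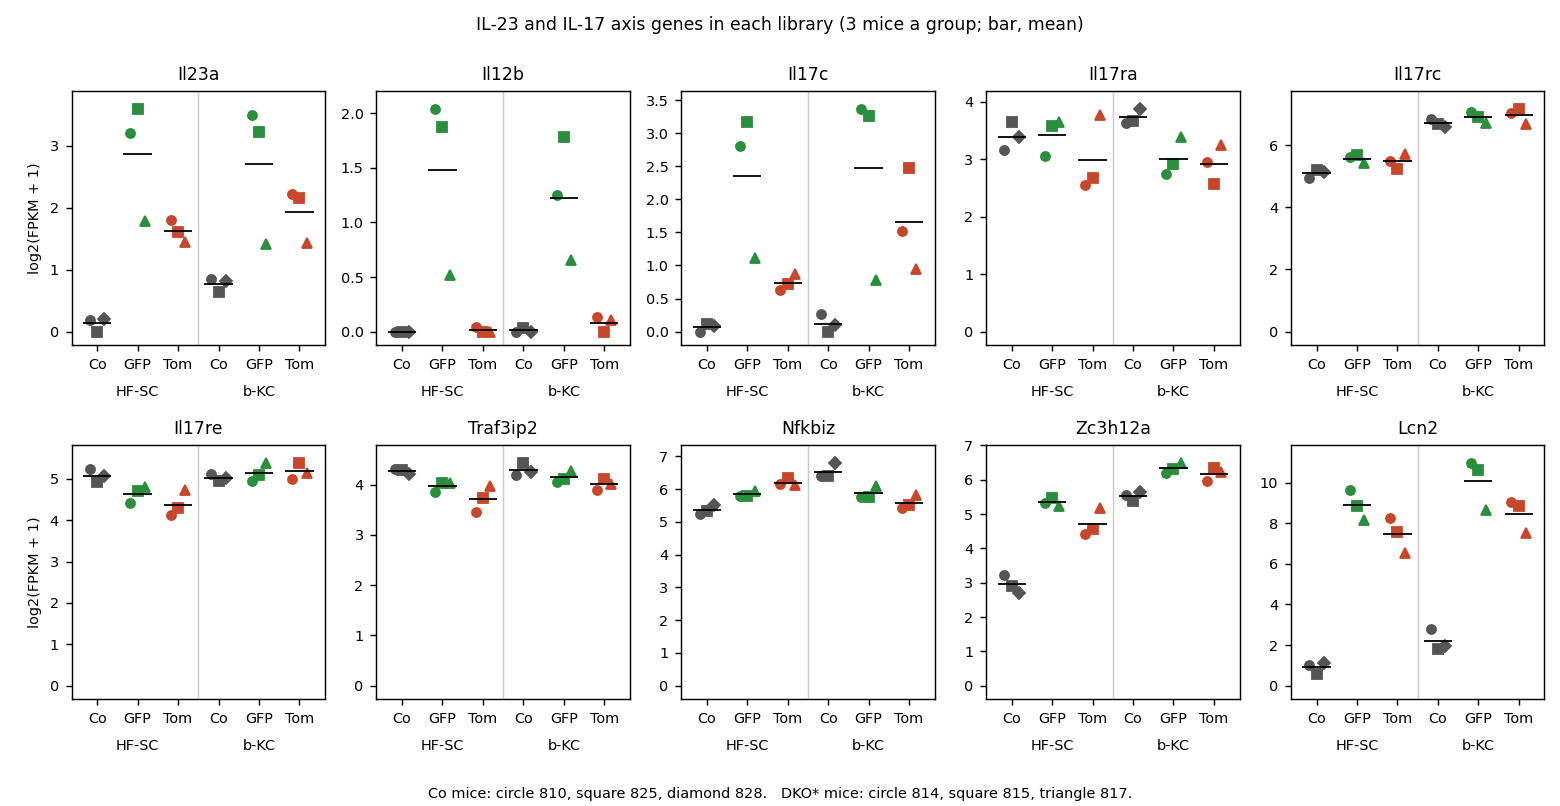
Each panel plots log2(FPKM + 1) of 1 gene in the 18 libraries, with 3 mice in each of 6 groups (circles mice 810 and 814, squares 825 and 815, diamonds 828, triangles 817) and a bar at the mean of the log2 values. Il23a, Il12b, Il17c and Lcn2 sit near the bottom in Co and higher in GFP, with the triangle of mouse 817 the lowest of each GFP group, whereas Il17ra, Il17rc, Il17re and Traf3ip2 differ far less.

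Il12b, the gene of the partner chain p40, was listed above 0.1 FPKM in GFP libraries alone. It was listed at 0 in all 3 Co HF-SC libraries and had 3.12, 2.66 and 0.431 FPKM in GFP HF-SCs of mice 814, 815 and 817. In Tom HF-SCs of these mice it had 0.0310, 0 and 0 FPKM. With an annotated transcript of 1944 bases the values of GFP HF-SCs stand for about 137, 115 and 20 reads, and 3 reads were worth 0.0587 to 0.0939 FPKM over the 18 libraries, while a value listed at 0 gives no read count. In b-KCs, Il12b had 0, 0.0226 and 0 FPKM in controls, 1.37, 2.43 and 0.579 for GFP and 0.0967, 0 and 0.0777 for Tom. No GFP library overlapped a Co or a Tom library of its cell type, and the Co and Tom libraries lay at or near the level of 3 reads. Il12b was called higher than Co in GFP HF-SCs (limma adjusted p = 0.00143, and 0.00554 without a filter), with no fold change given, and the call was lost in a fit of the groups compared alone (limma adjusted p = 0.0152). In GFP b-KCs the mean log2(FPKM + 1) lay 1.22 above Co (SE 0.31, limma adjusted p = 0.00588), or 3.67 with 0.1 added, and this call was lost without a filter (limma adjusted p = 0.0187) and with the groups compared alone (limma adjusted p = 0.0120). The HF-SC call was lost without mouse 828 (limma adjusted p = 0.0101), and the b-KC call was lost without mouse 810, 825 or 828 (limma adjusted p from 0.0240 to 0.0292). Without mouse 814 or 815 Il12b no longer passed the filter and was not tested, so the fits do not show whether the calls hold without them. Tom was not called against Co in either cell type, and the difference in b-KCs was 0.07.

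The chain that would pair with p40 into IL-12, encoded by Il12a, reached at most 0.0610 FPKM in any library. Ebi3 and Il27, which encode other subunits of the same cytokine family, reached 0.727 and 0.212 FPKM, so that none of these 3 genes entered the tests. The T cell cytokine genes downstream of IL-23 were also near 0, with a maximum of 0.115 FPKM for Il17a, 0.637 for Il17f, 0.222 for Il22 and 0.0286 for Il21, and 0 of the 4 were tested. The receptor genes Il23r and Il12rb1, which together receive IL-23, reached 0.227 and 0.387 FPKM.

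Il17c, the epithelial member of the IL-17 family, had 0, 0.0819 and 0.0627 FPKM in Co HF-SCs, 5.96, 7.99 and 1.16 in GFP HF-SCs and 0.555, 0.640 and 0.830 in Tom HF-SCs. The 3 HF-SC groups did not overlap one another. In b-KCs it had 0.198, 0 and 0.0749 FPKM in controls, 9.35, 8.62 and 0.719 for GFP and 1.88, 4.57 and 0.927 for Tom, so that Co was again apart while GFP and Tom overlapped through mouse 817. The Co values lay near the worth of 3 reads, 0.159 to 0.254 FPKM. The mean log2(FPKM + 1) of Il17c lay 2.29 above Co in GFP HF-SCs (SE 0.59, limma adjusted p = 0.00638) and 2.35 above it in GFP b-KCs (SE 0.59, limma adjusted p = 0.00576), or 4.78 and 4.55 with 0.1 added. Both calls were lost without a filter (limma adjusted p = 0.0224 and 0.0212), and the b-KC call with the groups compared alone (limma adjusted p = 0.0282). Both were also lost when any mouse except 817 was left out, with limma adjusted p from 0.0250 to 0.0424 in HF-SCs and from 0.0198 to 0.0579 in b-KCs. In Tom b-KCs the difference was 1.53 (limma adjusted p = 0.0453), not called, and it passed without mouse 817 (limma adjusted p = 8.02e-06). It also passed with 0.1 added (3.61, limma adjusted p = 0.00301) and with the groups compared alone (limma adjusted p = 0.00866). In Tom HF-SCs the difference was 0.67 and was not called.

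Of the other IL-17 family ligands, Il17b and Il17d entered the tests and Il25 did not. Il17b was called in GFP b-KCs, with 0.272 to 1.61 FPKM against at most 0.142 in Co b-KCs (log2 difference 0.90, limma adjusted p = 0.00454). It reached 1 FPKM in 0 Co, 3 GFP and 1 Tom libraries, among them GFP b-KC libraries of this call with 1.37 and 1.61 FPKM. Its selection is thus tied to this comparison, and no adjusted p without a filter is given for it. Il17b was not called in the other 3 comparisons with Co.

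The receptor genes were expressed at rest in both cell types. Il17ra, whose product is the chain shared by the receptors for IL-17A and IL-17C, had 11.4, 11.8 and 13.8 FPKM in Co b-KCs, 5.67, 6.54 and 9.48 in GFP b-KCs and 6.71, 4.92 and 8.50 in Tom b-KCs. Every DKO* value of b-KCs was under every Co value, but the log2 differences of -0.72 in GFP and -0.81 in Tom were not called (limma adjusted p = 0.0541 and 0.0294). Both passed without mouse 817, at limma adjusted p = 8.82e-04 and 5.32e-04, and the Tom difference passed with the groups compared alone (limma adjusted p = 0.00889). In HF-SCs the groups overlapped, with 7.94 to 11.5 FPKM in Co, 7.29 to 11.6 in GFP and 4.84 to 12.6 in Tom, the highest of which was mouse 817.

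Il17rc, the partner chain for IL-17A and IL-17F, was the most abundant receptor gene of the axis on the FPKM scale, which is per length. It had 113, 101 and 94.7 FPKM in Co b-KCs of mice 810, 825 and 828 and 29.5, 36.0 and 34.4 in Co HF-SCs of the same mice. The control cell types did not overlap, the b-KC mean was 3.09-fold the HF-SC mean, and the log2 difference of HF-SCs from b-KCs was -1.60 (SE 0.15, limma adjusted p = 5.20e-07). In GFP HF-SCs it had 47.8, 49.7 and 42.0 FPKM, each above each Co value, a log2 difference of 0.47 that was not called (limma adjusted p = 0.0238) and that passed without mouse 817 (limma adjusted p = 0.00316). Tom HF-SCs had 36.6 to 50.98 FPKM, a log2 difference of 0.38 from Co (limma adjusted p = 0.0563). In b-KCs the DKO* libraries, with 102 to 144 FPKM, overlapped those of Co.

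Il17re, the chain specific for IL-17C, went the other way in HF-SCs. It had 36.8, 29.3 and 32.7 FPKM in Co HF-SCs, 20.2, 24.9 and 26.8 in GFP HF-SCs and 16.4, 18.6 and 25.4 in Tom HF-SCs. All DKO* values of HF-SCs were under all Co values. Il17re fell in Tom HF-SCs by 0.70 on the log2 scale (SE 0.17, limma adjusted p = 0.00324), to a mean 1.64-fold lower than in Co, and this call was lost without mouse 810, 814, 815 or 828 (limma adjusted p from 0.0167 to 0.0317) and with the groups compared alone (limma adjusted p = 0.0299). In GFP HF-SCs the difference was -0.45 (limma adjusted p = 0.0457), not called, and it passed without mouse 817 (limma adjusted p = 0.00765). In b-KCs, Il17re had 29.8 to 33.5 FPKM in Co, 29.9 to 41.0 in GFP and 31.0 to 41.0 in Tom, and the groups overlapped. The change from Co to Tom in HF-SCs less that in b-KCs was -0.86 on the log2 scale (SE 0.24, limma adjusted p = 0.0218), which was not called, and under a random block by mouse it was called (limma adjusted p = 0.00313). It was also called without mouse 817 (limma adjusted p = 0.00178).

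Traf3ip2, the gene of the adaptor Act1, fell in Tom HF-SCs too. It had 18.8, 18.6 and 17.6 FPKM in Co HF-SCs, 13.5, 15.3 and 15.3 in GFP HF-SCs and 9.91, 12.4 and 14.6 in Tom HF-SCs. The DKO* libraries of HF-SCs lay below those of Co. The log2 fold change was -0.56 in Tom HF-SCs (SE 0.13, limma adjusted p = 0.00266), a mean 1.49-fold lower, and -0.30 in GFP HF-SCs (limma adjusted p = 0.0770), which was not called. The Tom call was lost when any mouse except 817 was left out, with limma adjusted p from 0.0116 to 0.0243, and with the groups compared alone (limma adjusted p = 0.0426). In b-KCs, Traf3ip2 had 17.3 to 20.7 FPKM in Co, 15.6 to 18.3 in GFP and 13.8 to 16.4 in Tom, with no call.

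**Figure D2:**
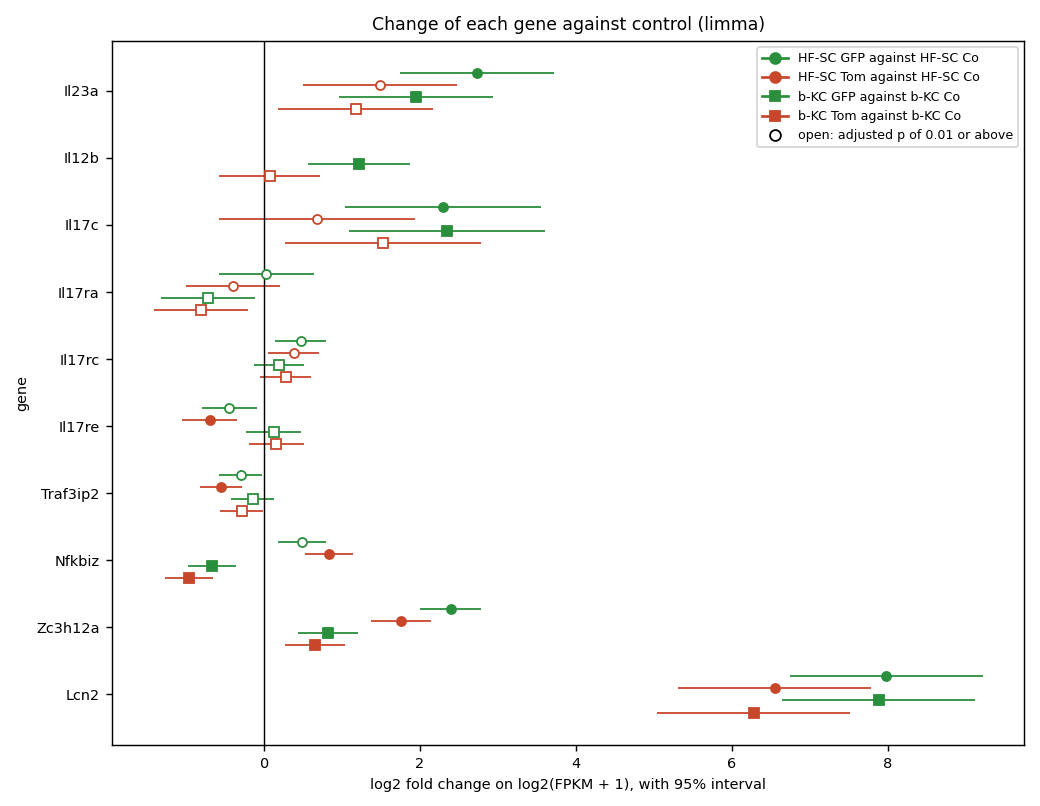
The log2 fold change of each gene against Co of its cell type, on log2(FPKM + 1), is drawn with its 95% interval for HF-SC (circles) and b-KC (squares), GFP in green and Tom in red, and open symbols mark an adjusted p of 0.01 or above, with no point for Il12b in HF-SCs, whose Co libraries were all listed at 0. Lcn2 stands far to the right in all 4 comparisons, and Nfkbiz lies right of 0 in HF-SCs and left of 0 in b-KCs.

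Nfkbiz and Zc3h12a are both induced by IL-17 in keratinocytes and act in opposite directions on its response. Nfkbiz encodes IkB-zeta, a nuclear cofactor that switches on secondary NF-kB targets, Lcn2 among them. Zc3h12a encodes Regnase-1, an RNase that degrades inflammatory transcripts.

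Nfkbiz changed in opposite directions in the 2 cell types. It had 37.2, 39.3 and 44.8 FPKM in Co HF-SCs, 54.5, 55.0 and 60.8 in GFP HF-SCs and 69.9, 80.4 and 68.3 in Tom HF-SCs. The 3 HF-SC groups did not overlap, with Tom the highest. In b-KCs it had 84.3, 82.9 and 111 FPKM in controls, 53.5, 52.9 and 67.6 for GFP and 41.5, 44.9 and 55.0 for Tom, and Co was the highest group with no overlap. Nfkbiz rose in Tom HF-SCs by 0.84 on the log2 scale (SE 0.15, limma adjusted p = 2.78e-04), and in GFP HF-SCs the difference of 0.48 was not called (limma adjusted p = 0.0159). It fell in Tom b-KCs by 0.96 (SE 0.15, limma adjusted p = 1.04e-04) and in GFP b-KCs by 0.66 (SE 0.15, limma adjusted p = 0.00244), and the GFP b-KC call was lost without mouse 814, 815 or 828 (limma adjusted p from 0.0208 to 0.0382) and with the groups compared alone (limma adjusted p = 0.0164). The difference between the cell types was itself tested, and the change was larger in HF-SCs by 1.80 for Tom (SE 0.21, limma adjusted p = 4.77e-05) and by 1.15 for GFP (SE 0.21, limma adjusted p = 0.00200). The GFP difference was lost when any mouse except 817 was left out, with limma adjusted p from 0.0101 to 0.0407, while the Tom difference held without each mouse in turn. At rest Nfkbiz was 2.30-fold higher in Co b-KCs than in Co HF-SCs, a log2 difference of HF-SCs from b-KCs of -1.17 (SE 0.15, limma adjusted p = 7.56e-06). In the DKO* mice the order of the cell types was turned for Tom, where each HF-SC library lay above each b-KC library.

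Zc3h12a rose in all 4 DKO* populations and most in GFP HF-SCs. It had 8.45, 6.53 and 5.56 FPKM in Co HF-SCs, 39.4, 43.5 and 36.5 in GFP HF-SCs and 20.3, 22.7 and 35.0 in Tom HF-SCs. The 3 HF-SC groups did not overlap, although the Tom value of mouse 817 came close to its GFP value. In b-KCs it had 45.6, 40.5 and 48.6 FPKM in controls, 72.3, 78.5 and 89.5 for GFP and 61.5, 79.7 and 73.2 for Tom, and both DKO* groups lay above Co. The mean was 5.82-fold that of Co in GFP HF-SCs (log2 fold change 2.39, SE 0.18, limma adjusted p = 1.62e-07). It was 3.79-fold in Tom HF-SCs (log2 fold change 1.76, limma adjusted p = 2.28e-06). In b-KCs it was 1.78-fold in GFP (log2 fold change 0.82, limma adjusted p = 0.00273) and 1.59-fold in Tom (log2 fold change 0.65, limma adjusted p = 0.00875). The GFP b-KC call was lost without mouse 815 or 825 (limma adjusted p from 0.0212 to 0.0253), and the Tom b-KC call was lost when any mouse except 817 was left out (limma adjusted p from 0.01001 to 0.0754) and without a filter (limma adjusted p = 0.0202). HF-SCs exceeded b-KCs in their change by 1.57 for GFP (SE 0.26, limma adjusted p = 0.00109) and by 1.11 for Tom (SE 0.26, limma adjusted p = 0.00828). The first of these was lost without mouse 815 or 828 (limma adjusted p = 0.0280 and 0.0149), and the second when any mouse except 817 was left out (limma adjusted p from 0.0165 to 0.0685) and without a filter (limma adjusted p = 0.0187). Control HF-SCs started from a 6.56-fold lower mean than control b-KCs, a log2 difference of -2.56 (SE 0.18, limma adjusted p = 2.19e-08). The GFP means of the cell types were 39.8 and 80.1 FPKM and the Co means 6.85 and 44.9. The GFP means were closer to each other as a ratio, but not as a difference in FPKM.

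Lcn2, which encodes the iron-binding antimicrobial protein lipocalin-2, had the largest change of the 10 genes in each of the 4 comparisons with Co. It had 1.03, 0.502 and 1.15 FPKM in Co HF-SCs, 791, 466 and 288 in GFP HF-SCs and 305, 187 and 92.8 in Tom HF-SCs. In b-KCs it had 5.96, 2.48 and 2.93 FPKM in controls, 2024, 1557 and 401 for GFP and 533, 458 and 183 for Tom. No DKO* library came near a Co library, and within each DKO* group mouse 814 was the highest and mouse 817 the lowest. The ratio of mean FPKM to Co was 575 in GFP HF-SCs, 218 in Tom HF-SCs, 350.1 in GFP b-KCs and 103 in Tom b-KCs. On the log2 scale Lcn2 rose by 7.98 in GFP HF-SCs (SE 0.58, limma adjusted p = 1.09e-07) and by 6.55 in Tom HF-SCs (limma adjusted p = 4.91e-07). The b-KC values were 7.89 in GFP (limma adjusted p = 5.17e-07) and 6.28 in Tom (limma adjusted p = 1.57e-06). All 4 calls held under every alternative run. Between the cell types, the Co-to-GFP change differed by 0.10 (95% interval from -1.66 to 1.85) and the change from Co to Tom by 0.27 (95% interval from -1.49 to 2.02), so that a difference was not shown. At rest Lcn2 was 4.23-fold higher in Co b-KCs than in Co HF-SCs with no overlap (log2 difference -1.29 of HF-SCs from b-KCs, limma adjusted p = 0.0763), and with the mouse as a fixed block the difference passed (limma adjusted p = 6.08e-04). Il23a showed the same at rest, with a log2 difference of -0.63 that was not called (limma adjusted p = 0.273) and that passed with the mouse as a fixed block (limma adjusted p = 0.00103). Both also passed when mouse 817, which gave no Co library, was left out of the fit (limma adjusted p = 9.57e-04 for Il23a and 9.52e-04 for Lcn2).

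Counted over the 10 members, 5 were called higher and 0 lower in GFP HF-SCs, where 13.0% of all tested genes were called higher and 12.3% lower. In Tom HF-SCs 3 were called higher and 2 lower, against 15.7% and 13.9% of all tested genes. In GFP b-KCs 5 were called higher and 1 lower, against 12.5% and 12.0%, and in Tom b-KCs 2 were called higher and 1 lower, against 15.4% and 15.3%. Of the 5 called higher in each GFP fraction, 3 were Il23a, Il12b and Il17c. Over the 7 other members the median log2 fold change was 0.47 in GFP HF-SCs, 0.38 in Tom HF-SCs, 0.12 in GFP b-KCs and 0.15 in Tom b-KCs, where the median of all tested genes was -0.05, -0.04, -0.03 and -0.02. Between the Co groups 3 members were called lower in HF-SCs than in b-KCs, where 19.3% of all tested genes were called lower, and rescaling the libraries to a common median moved the median of all genes from -0.06 to 0.08. The change from Co differed between cell types for 2 members in GFP and 2 in Tom, all larger in HF-SCs, against 3.32% and 5.93% of all tested genes.

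The mutant and non-mutant cells of the same mice were also compared. This comparison does not isolate the deletion. In HF-SCs the endothelial marker sum was 0.767 to 18.2 FPKM in GFP and 318 to 816 in Tom, and Tom cells had less Jun and Junb than Co. Each GFP HF-SC library had more Il23a, Il12b, Il17c, Zc3h12a and Lcn2 than the Tom library of its mouse, in 3 of 3 mice for each gene, and less Nfkbiz in 3 of 3. In b-KCs Il12b, Lcn2 and also Nfkbiz were higher in GFP in 3 of 3 mice, and Il23a, Il17c and Zc3h12a in 2 of 3. Il12b was the 1 member called between GFP HF-SCs and Tom HF-SCs, with a difference of 1.46 in mean log2(FPKM + 1) (SE 0.31, limma adjusted p = 0.00537), or 3.94 with 0.1 added, where 0.902% of all tested genes were called higher. Since it passed the filter through GFP libraries alone, this comparison is tied to the filter, and the call was lost without one (limma adjusted p = 0.0171) and with the groups compared alone (limma adjusted p = 0.118). With the mouse as a fixed block and both fractions fitted alone, this call was lost (limma adjusted p = 0.0662) and that of Lcn2 was gained, at a log2 difference of 1.44 (limma adjusted p = 0.00951 against 0.167 without the block). The Il12b call was also lost without mouse 810, 825 or 828 (limma adjusted p from 0.0139 to 0.0143), and without mouse 814 or 815 it was not tested.
The other differences between GFP HF-SCs and Tom HF-SCs were 1.62 for Il17c (limma adjusted p = 0.117), 1.25 for Il23a (limma adjusted p = 0.128), 0.63 for Zc3h12a (limma adjusted p = 0.0413) and -0.35 for Nfkbiz (limma adjusted p = 0.174). Mouse 817 stood apart from the other 2 mice for 3 of these genes. In its HF-SC fractions the ratio of GFP to Tom was 1.43 for Il23a, 1.39 for Il17c and 1.05 for Zc3h12a, whereas the ratios in mice 814 and 815 were 3.29 and 5.45, 10.7 and 12.5, and 1.95 and 1.92. Lcn2 was the exception, since its ratio of GFP to Tom was 3.10 in mouse 817 beside 2.59 and 2.49 in mice 814 and 815. Without mouse 817 the log2 differences were 1.70 for Il23a (limma adjusted p = 3.33e-06), 2.31 for Il17c (limma adjusted p = 5.59e-06) and 0.92 for Zc3h12a (limma adjusted p = 0.00152), with 2 mice left in each DKO* group. Mouse 817 was picked out after its values were seen, and leaving out any other mouse gave no call for these 3 genes. Without mouse 815 the differences were 0.87 for Il23a (limma adjusted p = 0.744) and 1.20 for Il17c (limma adjusted p = 0.643). Leaving out mouse 817 also lowered the limma adjusted p of Il23a between the Co groups, where it gave no library, from 0.273 to 9.57e-04.

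**Figure D3:**
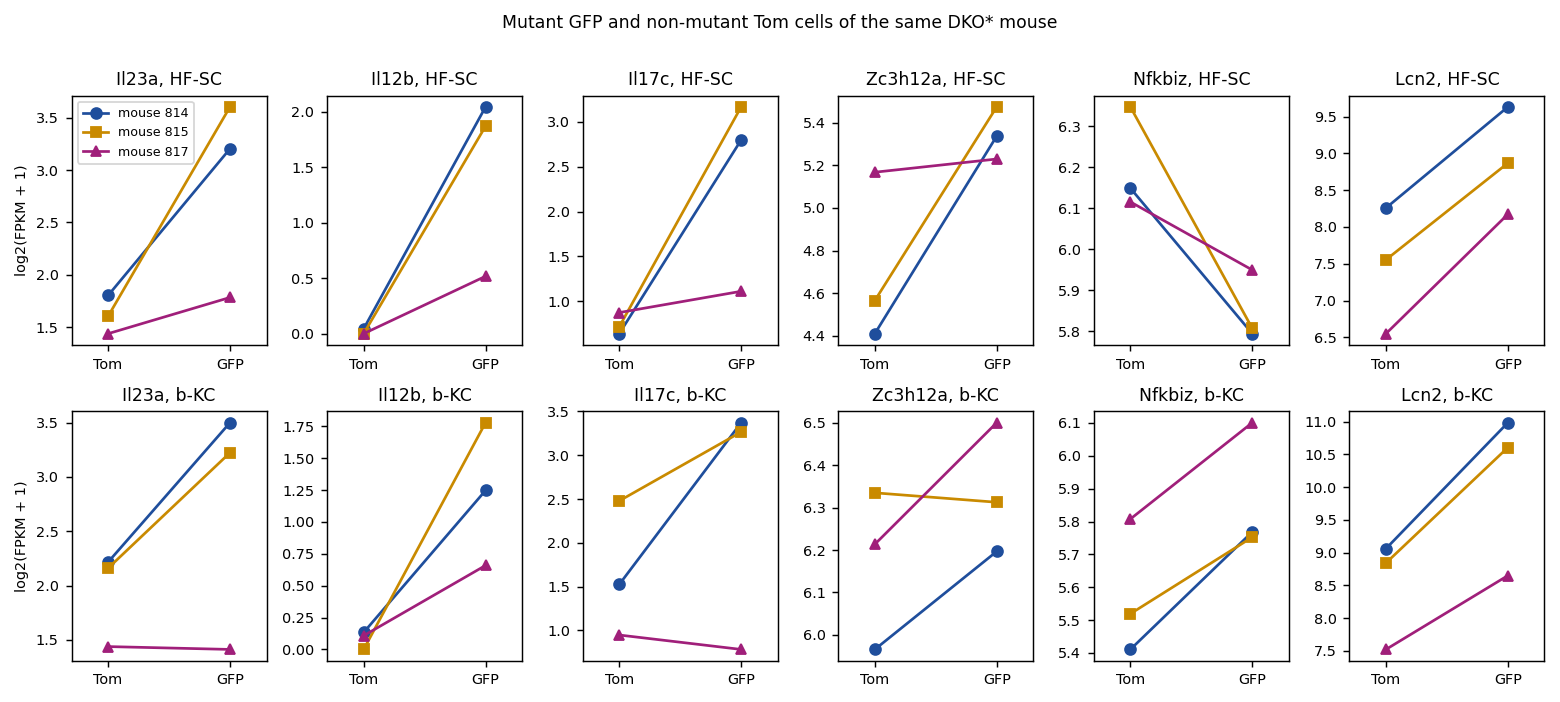
Lines join log2(FPKM + 1) of the Tom and GFP fractions of 1 mouse for 6 genes in HF-SCs (upper row) and b-KCs (lower row), with vertical axes that differ between panels and do not start at 0. Lines for Il12b and Lcn2 go up in each mouse, those of Nfkbiz go down in HF-SCs and up in b-KCs, and mouse 817 has the flattest Il23a and Il17c lines.

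Between GFP b-KCs and Tom b-KCs 0 of the 10 members were called by limma, where 0.361% of all tested genes were called higher, and 2 had an unadjusted limma p under 0.05. The differences were 1.15 for Il12b (limma adjusted p = 0.0775), 1.60 for Lcn2 (limma adjusted p = 0.227), 0.82 for Il17c (limma adjusted p = 0.744) and 0.77 for Il23a (limma adjusted p = 0.631). Mouse 817 was picked out after its values were seen. Without mouse 817 all 4 passed, with 1.45 for Il12b (limma adjusted p = 7.81e-05), 1.84 for Lcn2 (limma adjusted p = 0.00383), 1.32 for Il17c (limma adjusted p = 0.00344) and 1.17 for Il23a (limma adjusted p = 6.09e-04). Leaving out any other mouse gave no call for these 4 genes, with Il12b not tested without mouse 814 or 815. The Il23a difference was 0.52 without mouse 814 (limma adjusted p = 0.939) and 0.63 without mouse 815. Between the Co groups, which hold no library of mouse 817, the adjusted p of Il23a also fell at an unchanged difference of -0.63. The lower adjusted p is therefore not separate evidence of a difference. The Nfkbiz difference of 0.29 and the Zc3h12a difference of 0.17 were not called in any fit run.

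The keratinocyte targets of IL-17 were looked at as a list of 18 further genes, 17 of which entered the tests, and many of which also answer to other inflammatory signals. Of the 17, 8 passed the filter only with DKO* libraries, Il19 among them, and the other 9 passed it in Co as well. In GFP HF-SCs 7 of these 9 were called higher, at a median log2 change of 3.81, where 13.0% of all tested genes were called higher. Tom HF-SCs had 6 of 9 called higher against 15.7% of all tested genes, GFP b-KCs 6 against 12.5% and Tom b-KCs 4 against 15.4%, with medians of 2.72, 2.38 and 1.72, and 0 of the 9 were called lower. Single values over the 17 genes ran from -1.70 to 10.03 in GFP HF-SCs. Il19, a cytokine gene of the IL-20 group, had 158 to 257 FPKM in GFP HF-SCs and 104 to 228 in Tom HF-SCs, against at most 0.321 in Co HF-SCs. The calprotectin genes S100a8 and S100a9 exceeded Lcn2 in size, by log2 fold changes of 10.03 and 9.85 in GFP HF-SCs. Il6 was the one gene with an opposite sign in the mutant fractions, where its log2 fold changes of -1.70 in GFP HF-SCs and -0.37 in GFP b-KCs were not called. In Tom HF-SCs Il6 was called higher, by 2.72 (limma adjusted p = 0.00498), and in Tom b-KCs its difference of 1.17 was not called. Il6 was picked out after its values were seen.

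**Figure D4:**
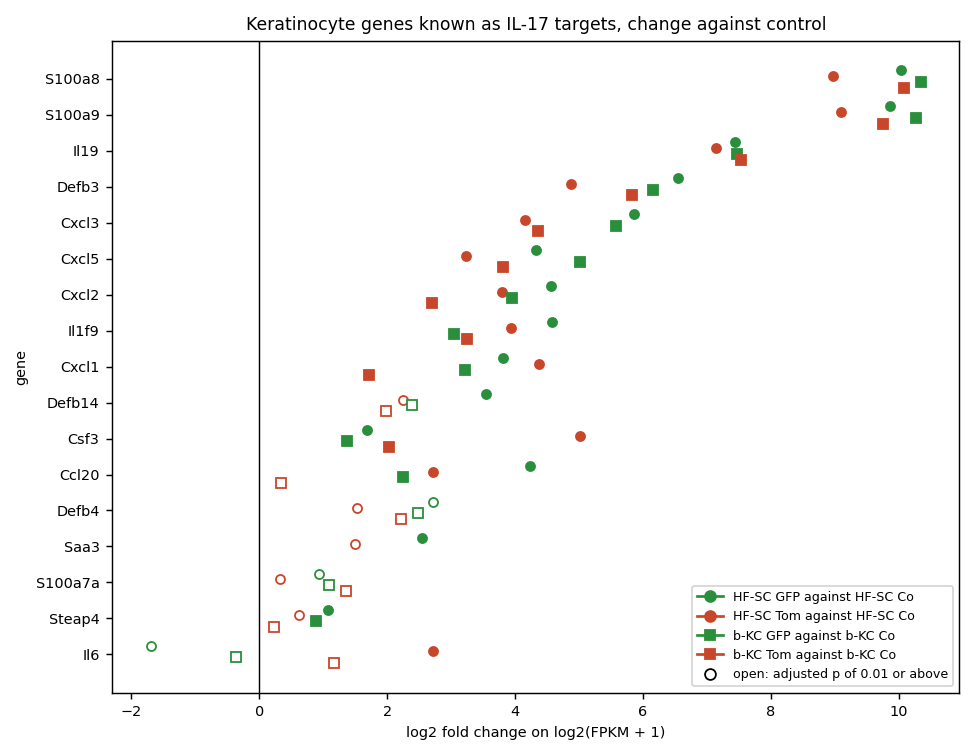
Points give the log2 fold change against Co, on log2(FPKM + 1), of the 17 tested keratinocyte genes known to respond to IL-17, for HF-SC (circles) and b-KC (squares), GFP in green and Tom in red, open where the adjusted p was 0.01 or above. No point is drawn for Saa3 in b-KCs, since it was listed at 0 in all 3 Co libraries. All filled points lie right of 0, between 0.88 and 10.35.

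Il22ra2, which encodes a soluble decoy for IL-22, had 7.54 to 7.75 FPKM in GFP HF-SCs and 5.36 to 6.86 in Tom HF-SCs against 1.63 to 1.996 in Co HF-SCs, and it was called in both (log2 fold change 1.65 and 1.31, limma adjusted p = 7.18e-06 and 4.87e-05). Il12rb2, a chain of the IL-12 receptor, had 4.67 to 5.78 FPKM in GFP HF-SCs against 0.999 to 1.32 in Co (log2 fold change 1.51, limma adjusted p = 1.52e-04), and it was not called in Tom HF-SCs. Neither Il22ra2 nor Il12rb2 was called in b-KCs, where Co already had 13.7 to 20.4 FPKM of Il22ra2 and 8.08 to 15.4 of Il12rb2. Il17rb, a chain of the receptor for IL-25, fell in Tom HF-SCs by 1.23 on the log2 scale (limma adjusted p = 5.01e-04), with 2.14 to 4.20 FPKM against 6.08 to 9.14. Il17rb was also called lower in GFP HF-SCs (limma adjusted p = 0.00218) and Tom b-KCs (limma adjusted p = 0.00122), and not in GFP b-KCs (limma adjusted p = 0.0101). Over the 6 tested receptor chains, 2 were called higher and 1 lower in GFP HF-SCs, 1 and 1 in Tom HF-SCs, 1 and 0 in GFP b-KCs and 1 and 1 in Tom b-KCs, and with 12.0% to 15.7% of all tested genes called in a direction, 1 of 6 is near that share.

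Of 17 signalling genes between the receptors and NF-kB, C/EBP and STAT3, most did not pass. In GFP HF-SCs 2 were called higher and 1 lower, in Tom HF-SCs 1 and 0, in GFP b-KCs 3 and 3 and in Tom b-KCs 2 and 3. Of all tested genes 13.0% were called higher and 12.3% lower in GFP HF-SCs, 15.7% and 13.9% in Tom HF-SCs, 12.5% and 12.0% in GFP b-KCs and 15.4% and 15.3% in Tom b-KCs, so that the counts are not read as a result about these genes. Traf5, an adaptor that works with Act1 in transcript stabilisation, had 0.827 to 1.70 FPKM in Tom b-KCs against 5.08 to 11.5 in Co b-KCs (log2 fold change -1.999, limma adjusted p = 2.11e-05), and it was also called lower in GFP HF-SCs and GFP b-KCs. Cebpd, a C/EBP factor gene, rose in GFP b-KCs from 12.4 to 13.2 FPKM in Co to 27.8 to 49.5 (log2 fold change 1.53, limma adjusted p = 1.35e-04). Cebpd was also called higher in Tom b-KCs (1.06, limma adjusted p = 0.00138), and in neither fraction of HF-SCs. Stat3, which transmits the IL-23 and IL-22 signals, rose in GFP HF-SCs to 138 to 158 FPKM from 58.5 to 75.7 (log2 fold change 1.15, limma adjusted p = 1.62e-04). Stat3 was also called higher in Tom HF-SCs (0.74, limma adjusted p = 0.00437) and GFP b-KCs (0.72, limma adjusted p = 0.00598), and not in Tom b-KCs (limma adjusted p = 0.0212).

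Among 7 further regulators of transcripts and feedback, 4 were called higher in GFP HF-SCs, 3 in Tom HF-SCs, 2 in GFP b-KCs and 2 in Tom b-KCs, and 0, 0, 1 and 2 were called lower, against the same shares of all tested genes as for the signalling genes. Bcl3, a nuclear IkB protein gene related to Nfkbiz, rose in all 4 populations, most in Tom HF-SCs, where it had 24.1 to 31.1 FPKM against 1.14 to 2.37 in Co (log2 fold change 3.40, limma adjusted p = 6.81e-09). Tnfaip3, whose product A20 restrains NF-kB, had the same opposite signs as Nfkbiz. It was called higher in GFP HF-SCs (log2 fold change 1.63) and Tom HF-SCs (1.74) and lower in GFP b-KCs (-0.78) and Tom b-KCs (-1.40), and like Nfkbiz it was higher at rest in Co b-KCs, with 117 to 166 FPKM against 15.9 to 23.0 in Co HF-SCs. Srsf1, a splicing factor that binds Act1, rose in Tom b-KCs by 1.301 on the log2 scale (limma adjusted p = 3.34e-05). Srsf1 was also called higher in GFP b-KCs (0.92, limma adjusted p = 8.63e-04) and GFP HF-SCs (0.75, limma adjusted p = 0.00278), and not in Tom HF-SCs (limma adjusted p = 0.0294).

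Markers of other cells were summed per library, since leukocytes are a usual source of IL-23 and the sort excluded CD45-positive cells. The sum of 6 leukocyte genes lay between 1.62 and 2.26 FPKM in Co HF-SCs, between 4.93 and 24.6 in GFP HF-SCs and between 9.84 and 14.9 in Tom HF-SCs, and between 0.231 and 0.729 in Co b-KCs, 3.58 and 3.75 in GFP b-KCs and 1.53 and 3.35 in Tom b-KCs. Like Il23a, it was higher in each DKO* library than in each Co library of the same cell type, and the highest sum, 24.6 FPKM, was that of GFP HF-SCs of mouse 817. Ptprc, which encodes CD45, stayed at or below 0.946 FPKM in every library. The sum of 6 Langerhans and dendritic genes was 5.06 to 11.5 FPKM in Co libraries and 120.4 to 1153 in DKO* libraries, carried by Cd74 and H2-Ab1, while Cd207 stayed at or below 1.07 and Itgax at or below 0.0732.
The T cell sum of 4 genes stayed at or below 0.491 FPKM and the macrophage sum of 4 genes at or below 13.0, again in GFP HF-SCs of mouse 817. The neutrophil sum of 6 genes was 1.47 to 1.95 FPKM in Co and 4.82 to 11.2 in DKO* libraries, most of it Cxcr2, and Camp stayed at or below 1.52. The endothelial sum of 4 genes was 318 to 816 FPKM in Tom HF-SCs, 30.0 to 51.3 in Co HF-SCs and 0.767 to 18.2 in GFP HF-SCs. It thus lay above Co in Tom and below Co in GFP. Nfkbiz, Il17re and Traf3ip2 differed from Co in the same direction in both fractions of HF-SCs, but more in Tom, where alone they were called. The log2 differences in Tom and GFP were 0.84 and 0.48 for Nfkbiz, -0.70 and -0.45 for Il17re, and -0.56 and -0.30 for Traf3ip2. A link to the endothelial sum was not tested. In b-KCs the endothelial sum did not exceed 3.68 FPKM. The fibroblast sum of 4 genes was 12.3 to 95.04 FPKM in HF-SC libraries and 1.57 to 5.46 in b-KC libraries. The basal keratinocyte sum of 5 genes was 5568 FPKM or more in every library, and the bulge sum of 6 genes was 1118 to 12872 in HF-SC libraries and 182 to 3149.9 in b-KC libraries. The value of 1118 was Co of mouse 828, where Krt15 was listed at 0. Mean FPKM in Co, GFP and Tom HF-SCs was 736, 198 and 286 for Cd34 and 158, 50.3 and 44.4 for Lgr5. It was 125, 38.7 and 24.8 for Lhx2, 127, 60.2 and 54.0 for Tbx1 and 65.2, 40.3 and 36.0 for Nfatc1. These bulge markers were thus lower in DKO* HF-SCs, and the part of this in the members' values was not tested. The part of other cells in the members' values was not tested beyond these sums.

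**Figure D5:**
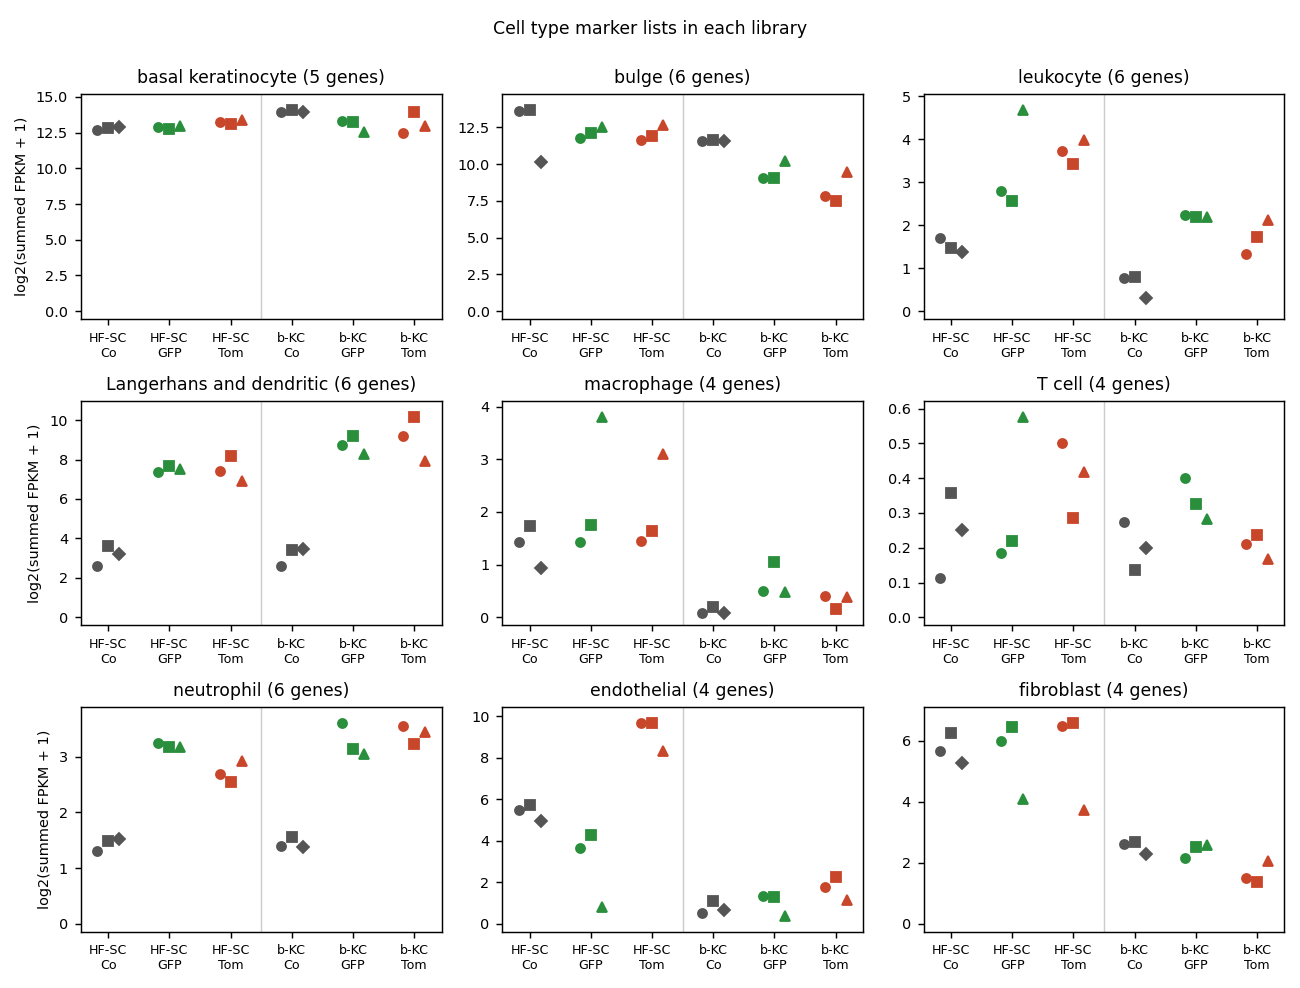
Each panel plots log2(summed FPKM + 1) of 1 marker list in the 18 libraries, 1 symbol per mouse as in the plot of the 10 genes. The leukocyte triangle of mouse 817 is the highest of GFP HF-SCs, the endothelial sums stand out in Tom HF-SCs, and the low bulge point of Co HF-SCs is mouse 828, where Krt15 is listed at 0.

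The genes whose log2(FPKM + 1) ran most like a member over the 18 libraries are given as a description, since these libraries come from 6 groups of 6 mice and are not independent. Il23a was followed most closely by Prss27 (r = 0.974), Klk6 and Defb14 (r = 0.968), which encode 2 serine proteases of the epidermis and a beta-defensin. Il12b was followed by Saa1 (r = 0.929), an acute-phase protein gene, Psors1c2 and Plac8. Il17c was followed by Lpo (r = 0.960), the lactoperoxidase gene, Alpl and Prss27. Lcn2 ran with Prss12 (r = 0.988) and with the stefin A genes Stfa3 and Stfa1, and Zc3h12a with Crispld2 (r = 0.987), Ptges and Litaf. The most alike genes of the receptor and adaptor members were Sec16a for Il17ra (r = 0.957), E130309D02Rik for Il17rc (r = 0.978), Zfp219 for Il17re (r = 0.906) and Efs for Traf3ip2 (r = 0.894), and Kif26a for Nfkbiz (r = 0.917). Among the members themselves Il23a and Il17c were alike (r = 0.951), and Il23a and Lcn2 less so (r = 0.898).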

How the data were processed

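RNA of sorted mouse ear epidermal cells (18 libraries, 6 groups of 3 mice) was amplified with SMART-Seq v4 and sequenced without strand information as 51-base single reads. The authors aligned reads with TopHat 2.0.10 and Bowtie 1.0.0, allowing 2 mismatches and 20 multiple hits, and deposited FPKM values per gene from Cufflinks 2.2.1. The methods name NCBI37/mm9, and the processing notes list a later build beside it. Reads that fit several genes may be shared between them, and the count-based test of the study cannot be repeated from FPKM.

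Here log2(FPKM + 1) of the genes that reached 1 FPKM in 3 libraries or more (12751 of 23951) was fitted with limma 3.58.1 (R 4.3.3, empirical Bayes with trend) over all 6 groups, without a block, with Benjamini-Hochberg adjustment over all tested genes and a threshold of 0.01. The script was tested on simulated data. Each library is a separate mouse within its group, but each DKO* mouse gave 4 libraries and each Co mouse 2. The labels give this pairing, and deviations of same-mouse libraries from their group means correlated by 0.084 to 0.700. Alternatives were the mouse as a random block (correlation 0.274) or as a fixed block with the 2 groups fitted alone, a pseudocount of 0.1, no filter, only the groups compared, libraries rescaled to a common median, no trend, other thresholds, and each mouse left out. Depth was not listed and was read from the steps of low FPKM values, of which 76.9% to 80.8% per library lay within 0.1 of a whole read, so reads are approximate and no count test was run. The genes named are the 10 members, the 3 genes most correlated with each (1 to 3 are printed), and for each list the called genes with the largest change, besides the genes said to be picked after their values were seen. The members and the lists were chosen with earlier results of these data known. Il36g is listed under its older symbol Il1f9.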

Additional observations from a re-analysis of the deposited data

Results flagged for a closer look

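Nfkbiz and Zc3h12a were the members whose change from Co differed between HF-SCs and b-KCs in a test of that difference (limma, adjusted over all tested genes). For Nfkbiz the HF-SC change exceeded the b-KC change by 1.15 on the log2 scale in GFP and by 1.80 in Tom, with a higher level than Co in HF-SCs and a lower one in b-KCs. For Zc3h12a the HF-SC change exceeded the b-KC change by 1.57 in GFP and by 1.11 in Tom, with levels above Co in both cell types. Both genes were lower in Co HF-SCs than in Co b-KCs. The endothelial marker sum was also higher in Tom HF-SCs than in Co HF-SCs and lower in GFP HF-SCs, and its part in these differences was not tested.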

How the results depend on the processing

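Of the 27 differences called, 0 were lost without the trend, after rescaling, with the mouse as a random block or without mouse 817. Those lost numbered 1 with a pseudocount of 0.1, 1 with the fixed replicate block, 7 without a filter, 9 with only the groups compared, 18 with an added minimum log2 fold change of 2, and 10, 10 and 13 without mouse 810, 825 or 828. Without mouse 814 or 815, 9 and 11 were lost and the 3 of Il12b could not be tested, so that 12 and 14 were no longer called. The counts of members called, in place of 5 in GFP HF-SCs, 5 in Tom HF-SCs, 6 in GFP b-KCs, 3 in Tom b-KCs, 1 and 0 between GFP and Tom of HF-SCs and b-KCs, 3 between the Co groups, and 2 and 2 for the difference between cell types in GFP and Tom, were as follows. At an adjusted p under 0.05 they were 8 in GFP HF-SCs, 5 in Tom b-KCs and 2 between GFP HF-SCs and Tom. With the minimum fold they were 1 in Tom HF-SCs, 2 in GFP b-KCs, 1 in Tom b-KCs, 0 between GFP HF-SCs and Tom, 1 between the Co groups and 0 and 0 for the difference between cell types. Without a filter they were 3 in GFP b-KCs, 0 between GFP HF-SCs and Tom and 1 for the Tom difference between cell types. With only the groups compared they were 2 in GFP b-KCs, 6 in Tom b-KCs, 0 between GFP HF-SCs and Tom, 5 between the Co groups and 1 for the Tom difference between cell types. In Tom HF-SCs this fit also gave 5, but as 5 higher and 0 lower in place of 3 and 2. A pseudocount of 0.1 gave 1 between GFP b-KCs and Tom, and the fixed block gave 5 between the Co groups. The blocks changed no call beyond those given in the report. Leaving out 1 mouse, with 9 members tested without mouse 814 or 815, gave 3 to 7 in GFP HF-SCs, 3 to 7 in Tom HF-SCs, 1 to 7 in GFP b-KCs, 2 to 6 in Tom b-KCs, 0 to 4 between GFP and Tom of either cell type, 3 to 5 between the Co groups, and 0 to 2 and 1 to 4 for the differences between cell types. The Lcn2 difference between cell types in GFP, not called, was 0.10 and ranged from -0.26 to 0.37 with 1 mouse left out, turning to -0.15 without mouse 810 and to -0.26 without mouse 817. The causes of these shifts were not tested. The precision is limited by 3 mice a group and, for Il12b and Il23a in Co HF-SCs, by a handful of reads or none.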
